A study of Homo sapiens with 18 samples.

Results

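The genes described here are 10 that act on or carry heparan sulfate: the extracellular sulfatases SULF1 and SULF2, the glypicans GPC1, GPC3, GPC4 and GPC6, and the syndecans SDC1, SDC2, SDC3 and SDC4. They were taken by symbol from a deposited table of 46218 gene IDs, and all 10 were found there and passed the filter on low counts that left 24020 genes. They were chosen by measured values of these data. SULF1 is higher with the DDA1 guide in T98G and LN229, and SULF2 differs among the cell lines. Their levels and guide responses are therefore given as descriptions. Counts of calls among them, and p-values for the difference between the responses of T98G and LN229, are not independent of that choice. The data are RNA sequencing counts of U118-MG, T98G and LN229, established human glioblastoma cell lines, each treated with a CRISPR guide against DDA1 (sgDDA1) or a control guide (sgCon). There were 3 libraries in each of 6 groups, 18 in all, from cells grown in DMEM with fetal bovine serum. DDA1 encodes a small protein that binds DDB1 in CRL4 ubiquitin ligases. The labels give no clone, no guide sequence and no time after treatment, and nothing in them shows that the 3 libraries of a group are separate cultures. P-values here therefore cover the spread between libraries alone, which may be technical.

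Heparan sulfate is a long sulfated sugar chain that cells attach to a small set of core proteins and that binds growth factors such as FGF2, HGF and VEGFA at the cell surface. Glypicans are core proteins held in the membrane by a lipid anchor, and syndecans are core proteins that cross it and reach the cytoskeleton. SULF1 and SULF2 are secreted enzymes that remove 6-O-sulfate groups from finished chains, which changes the ligands the chains can hold, and SULF2 has been studied in glioblastoma for its effect on the growth factor receptor PDGFRA.

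Library totals lay between 44.9 and 55.1 M counts, apart from LN229 sgCon 1 with 94.1 M, and 3 counts corresponded to 0.0294 to 0.0809 CPM. CPM here are counts divided by the library total times its TMM factor, which adjusts for differences in RNA composition. DDA1 itself had 56.6, 59.8 and 55.6 CPM in T98G sgDDA1, against 61.4, 68.3 and 67.1 CPM in T98G sgCon. In LN229 it had 34.2, 32.1 and 34.8 CPM with sgDDA1, against 47.6, 49.2 and 48.9 CPM with sgCon. U118-MG sgDDA1 had 66.3, 59.0 and 63.8 CPM, against 71.8, 56.0 and 50.1 CPM in the libraries labelled U118-MG sgCon. As labelled, DDA1 was thus not called lower in U118-MG (log2 fold change 0.09, SE 0.10, edgeR adjusted p = 0.45). Without U118-MG sgCon 1, DDA1 was called higher there (log2 fold change 0.25, edgeR adjusted p = 0.0011). Its log2 fold change was -0.19 (SE 0.05, edgeR adjusted p = 0.00482) in T98G and -0.52 (SE 0.05, edgeR adjusted p = 1.18e-08) in LN229. With all 18 libraries in the fit the T98G difference did not pass (adjusted p = 0.197). The libraries labelled U118-MG went against their labels: over all genes, the 3 labelled U118-MG sgCon were nearest to the LN229 sgDDA1 mean, at root mean square log2 distances of 1.13, 0.854 and 0.785, and lay 2.25 to 2.39 from the U118-MG sgDDA1 mean. They also differed among themselves by up to 0.781, while replicates of the other 5 groups differed by 0.452 to 0.66. Tests therefore used the other 15 libraries, and comparisons with the labelled U118-MG sgCon libraries are named as such. Of the glial markers, VIM reached 59.3 to 2478 CPM over the 18 libraries, while GFAP stayed at or under 3.73 CPM, AQP4 at or under 3.32 CPM, CHI3L1 at or under 2.94 CPM and S100B at or under 0.27 CPM. NES ranged over 2.20 to 78.8 CPM, and SOX2 reached 19.0 CPM and OLIG2 13.4 CPM in their highest libraries. The immune markers PTPRC, CD68 and AIF1 each stayed at or under 0.349 CPM.

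SULF1 (ENSG00000137573, GRCh38 chromosome 8, 69466624 to 69660915, plus strand) spanned the widest range of levels over the lines, and it was higher with sgDDA1 in T98G and in LN229. In T98G it was low, with 50, 41 and 39 counts in sgDDA1 libraries, against 12, 14 and 12 counts in sgCon libraries. On the CPM scale these are 1.07, 0.887 and 0.814 CPM in T98G sgDDA1, against 0.232, 0.273 and 0.246 CPM in T98G sgCon. LN229 had 65.5, 70.3 and 70.3 CPM with sgDDA1, against 26.1, 27.7 and 26.9 CPM with sgCon. In both lines all 3 sgDDA1 libraries lay above all 3 sgCon libraries, with log2 fold changes of 1.88 (SE 0.41) in T98G and 1.36 (SE 0.09) in LN229. In U118-MG sgDDA1 the level was far higher, at 755, 529 and 510 CPM. The libraries labelled U118-MG sgCon had 54.5, 81.6 and 80.1 CPM, a range that contains that of LN229 sgDDA1, so SULF1 levels like those of LN229 sgDDA1 were also found in libraries labelled with the control guide. The order of group means was thus U118-MG sgDDA1, then labelled U118-MG sgCon and LN229 sgDDA1 with overlapping libraries, then LN229 sgCon, T98G sgDDA1 and T98G sgCon, each of these 3 separate from its neighbours. U118-MG sgDDA1 exceeded T98G sgDDA1 by 9.36 (SE 0.15) and LN229 sgDDA1 by 3.10 (SE 0.09) on the log2 scale. At the control guide, T98G was lower than LN229, with a log2 fold change of -6.77 (SE 0.20). In bulk RNA, fewer cells expressing a gene and less of its RNA per cell cannot be told apart.

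SULF2 (ENSG00000196562, chromosome 20, 47656348 to 47786616, minus strand) reached at least 35.7 CPM in every library but those of U118-MG sgDDA1. It had 0.324, 0.38 and 0.429 CPM in U118-MG sgDDA1, from 12, 15 and 17 counts, which is above the 3-count floor. The libraries labelled U118-MG sgCon had 66.1, 58.9 and 55.3 CPM. T98G had 86.8, 89.2 and 92.7 CPM with sgDDA1, against 48.1, 48.3 and 43.7 CPM with sgCon. In LN229 the values were 56.4, 56.5 and 59.0 CPM with sgDDA1, against 36.3, 35.7 and 36.0 CPM with sgCon. The sgDDA1 libraries of T98G and of LN229 all lay above their controls, with log2 fold changes of 0.94 (SE 0.05) in T98G and 0.67 (SE 0.05) in LN229. U118-MG sgDDA1 lay lower than T98G sgDDA1 by a log2 fold change of -7.85 (SE 0.10) and lower than LN229 sgDDA1 by -7.25 (SE 0.10), a pair of comparisons that share the U118-MG libraries. T98G and LN229 were close at the control guide, with T98G higher by 0.33 (SE 0.05). From the highest mean down, the order was T98G sgDDA1, labelled U118-MG sgCon and LN229 sgDDA1 with overlapping libraries, T98G sgCon, LN229 sgCon and U118-MG sgDDA1.

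**Figure D1:**
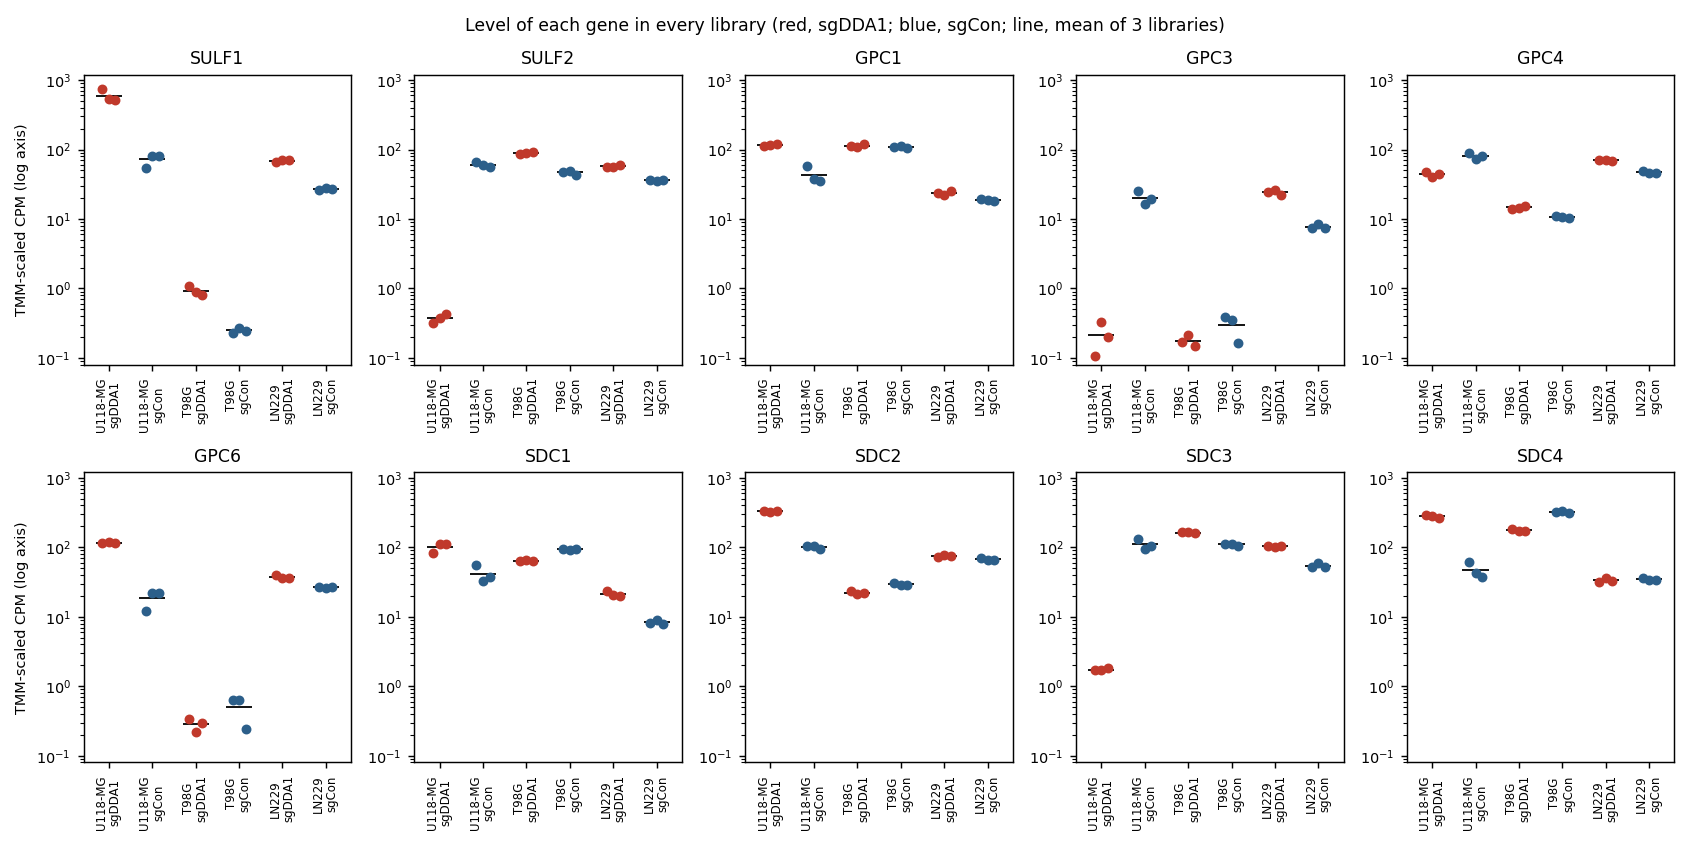
Level of each of the 10 genes in every library, as TMM-scaled CPM on a log axis, with groups on the horizontal axis, sgDDA1 in red, sgCon in blue and a line at the mean of 3 libraries. SULF2 at 0.324 to 0.429 CPM and SDC3 at 1.70 to 1.82 CPM in U118-MG sgDDA1 stand far below their levels in all other groups, while SULF1 there reaches 510 to 755 CPM.

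Compared per length, as deposited FPKM, the groups expressed different sulfatases. SULF1 made up 99.9% of the summed sulfatase FPKM in each U118-MG sgDDA1 library, but 36.9% to 50.7% in the libraries labelled U118-MG sgCon. Its share of that sum was 0.731% ± 0.128 in T98G sgDDA1 and 0.38% ± 0.0337 in T98G sgCon (SD, n = 3 each), so nearly all sulfatase RNA in T98G was SULF2. LN229 expressed both, and SULF1 took 46.0% ± 0.87 of the summed FPKM with sgDDA1 and 34.7% ± 0.862 with sgCon. The FPKM sum of both genes was 52.5 ± 12.2 in U118-MG sgDDA1, 12.6 ± 0.349 in T98G sgDDA1, 6.75 ± 0.385 in T98G sgCon, 18.2 ± 0.553 in LN229 sgDDA1 and 9.15 ± 0.175 in LN229 sgCon. It was 18.1 ± 1.87 in the libraries labelled U118-MG sgCon. The sum was therefore higher with sgDDA1 in every library of T98G and of LN229 than in any of their controls, and in T98G this was almost wholly SULF2.

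**Figure D2:**
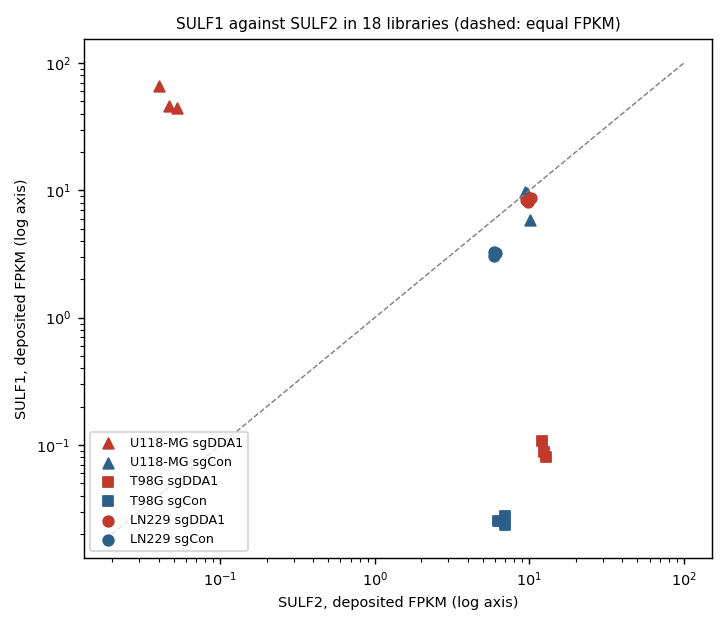
SULF1 against SULF2 in each of the 18 libraries, both as deposited FPKM on log axes, with a triangle for U118-MG, a square for T98G and a circle for LN229, red for sgDDA1, blue for sgCon and a dashed line of equal FPKM. The 3 U118-MG sgDDA1 libraries lie at SULF1 44.6 to 66.5 FPKM with SULF2 at 0.0401 to 0.0529 FPKM, T98G lies in the opposite corner, and the libraries labelled U118-MG sgCon lie beside LN229 sgDDA1.

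SULF2 shared its low level in U118-MG sgDDA1 with SDC3 and with GPC3, and it lies on the same chromosome, 2.31 Mb away, as SDC4, which was abundant in the same libraries. The upstream sequences of SULF2, SDC3 and SDC4 are printed because SULF2 and SDC3 were low in the same libraries and SDC4 was not. Each is the 250 bases before the most upstream transcription start that RefSeq gives on GRCh38.p14, read 5′ to 3′ on the minus strand, with CG dinucleotides in capitals. SULF2 is at chr20:47786628-47786877, SDC3 at chr1:30908759-30909008 and SDC4 at chr20:45348425-45348674.
SULF2: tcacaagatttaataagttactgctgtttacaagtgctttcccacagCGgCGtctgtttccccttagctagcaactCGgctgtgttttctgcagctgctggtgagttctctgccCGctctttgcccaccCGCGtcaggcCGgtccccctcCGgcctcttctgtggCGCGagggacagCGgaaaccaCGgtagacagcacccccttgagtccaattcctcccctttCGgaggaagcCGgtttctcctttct
SDC3: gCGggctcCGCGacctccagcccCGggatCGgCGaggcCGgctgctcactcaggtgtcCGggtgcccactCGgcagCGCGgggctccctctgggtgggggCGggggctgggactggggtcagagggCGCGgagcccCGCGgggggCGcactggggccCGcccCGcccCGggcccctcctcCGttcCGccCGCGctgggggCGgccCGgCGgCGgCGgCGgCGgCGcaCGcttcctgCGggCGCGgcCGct
SDC4: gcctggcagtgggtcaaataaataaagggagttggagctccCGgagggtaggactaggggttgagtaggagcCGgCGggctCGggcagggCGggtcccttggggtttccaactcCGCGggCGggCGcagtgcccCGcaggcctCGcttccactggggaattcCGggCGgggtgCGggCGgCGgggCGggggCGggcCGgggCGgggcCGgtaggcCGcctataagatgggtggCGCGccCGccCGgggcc
These windows hold 14, 37 and 26 CG dinucleotides in SULF2, SDC3 and SDC4 in that order, against a median of 11 over the 35116 windows of the same length in the RefSeq table. The SDC3 window has more than 96.0% of those windows and the SULF2 window more than 55.2%, so these windows of SULF2 and SDC3 differ in CG content. SULF2 has 4 starts there, and SDC3 and SDC4 have 1 each. Only the most upstream SULF2 start was searched, and which start these cells use was not analysed. The GC-box sequence GGGCGG, searched on both strands, occurs 5 times in the SDC3 window, 8 times in the SDC4 window and not in the SULF2 window, and 42.6% of all windows hold it. These 3 windows hold no TATAAA, which 10.7% of all windows hold on one strand or the other, and no CACGTG, which 6.34% hold. Of the 10 genes 7 matched that table (SULF2, GPC1, GPC4, GPC6, SDC1, SDC3 and SDC4), while SULF1, GPC3 and SDC2 did not. Among the 7, the windows of GPC1, GPC4 and SDC1 held GGGCGG 4, 2 and 1 times in that order, and that of GPC6 held none and had a TATAAA. Such matches describe letters in a window, and binding or methylation was not analysed here.

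The glypicans differed mostly by line, and GPC3 and GPC6 were at a few counts in T98G. GPC1 (ENSG00000063660, chromosome 2, 240435671 to 240468078, plus strand), a glypican studied in glioma as an FGF2 co-receptor, had 112, 116 and 122 CPM in U118-MG sgDDA1. In T98G it had 112, 108 and 120 CPM with sgDDA1, against 108, 111 and 105 CPM with sgCon, and the groups overlapped. The libraries labelled U118-MG sgCon had 57.4, 37.2 and 35.0 CPM. In LN229 GPC1 had 24.0, 22.0 and 24.9 CPM with sgDDA1, against 19.4, 18.9 and 18.2 CPM with sgCon. The log2 fold change was 0.07 (SE 0.05) in T98G and 0.33 (SE 0.06) in LN229, and only in LN229 were the groups separate.

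GPC3 (ENSG00000147257, X chromosome, 133535745 to 133985895, minus strand), an oncofetal glypican used as a marker of liver cancer, was well expressed only in LN229 and in libraries with the label U118-MG sgCon. LN229 had 24.6, 25.8 and 21.8 CPM with sgDDA1, against 7.50, 8.39 and 7.38 CPM with sgCon, a log2 fold change of 1.64 (SE 0.12) with separate groups. This was the largest guide difference of the 10 genes in LN229. T98G had 8, 10 and 7 counts with sgDDA1, against 20, 18 and 8 counts with sgCon, where the groups overlapped through T98G sgCon 3. The T98G log2 fold change was -0.76 (SE 0.37), and leaving out single T98G libraries moved it between -1.04 (without T98G sgCon 3) and -0.54 (without T98G sgCon 1). U118-MG sgDDA1 had 0.108, 0.329 and 0.202 CPM, while the libraries labelled U118-MG sgCon had 24.9, 16.3 and 19.5 CPM, close to LN229 sgDDA1.

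GPC4 (ENSG00000076716, X chromosome, 133300103 to 133415490, minus strand) lies 120 kb from GPC3 on the same strand, and is known, with GPC6, as an astrocyte-secreted protein that promotes synapse formation. It did not follow its neighbour in U118-MG sgDDA1, where it had 46.7, 40.7 and 43.7 CPM, against 89.5, 73.2 and 81.1 CPM in the libraries labelled U118-MG sgCon. T98G had 14.0, 14.5 and 15.4 CPM with sgDDA1, against 10.9, 10.8 and 10.5 CPM with sgCon. LN229 had 71.4, 71.1 and 68.9 CPM with sgDDA1, against 49.3, 46.3 and 46.4 CPM with sgCon. GPC4 was higher with sgDDA1 in every library of both lines, with log2 fold changes of 0.45 (SE 0.06) in T98G and 0.57 (SE 0.05) in LN229.

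GPC6 (ENSG00000183098, chromosome 13, 93226842 to 94407401, plus strand) had 117, 119 and 114 CPM in U118-MG sgDDA1. T98G had 16, 10 and 14 counts with sgDDA1, against 33, 33 and 12 counts with sgCon. Its T98G log2 fold change was -0.85 (SE 0.29), with overlap through T98G sgCon 3, and leaving out single T98G libraries moved it between -1.16 (without T98G sgCon 3) and -0.65 (without T98G sgCon 2). LN229 had 39.7, 36.3 and 36.1 CPM with sgDDA1, against 27.1, 26.2 and 27.1 CPM with sgCon, a log2 fold change of 0.48 (SE 0.07) with separate groups. U118-MG sgDDA1 exceeded T98G sgDDA1 by 8.69 (SE 0.12) and LN229 sgDDA1 by 1.62 (SE 0.07) on the log2 scale. The labelled U118-MG sgCon libraries had 12.2, 22.3 and 21.7 CPM, below every LN229 library. In GPC1, GPC4, SDC1, SDC2 and SDC4 they all lay above every LN229 library, and in SULF1, SULF2, GPC3 and SDC3 their range overlapped that of LN229 sgDDA1.

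As a share of summed glypican FPKM, GPC1 took 41.4% ± 1.48 and GPC6 37.9% ± 1.24 in U118-MG sgDDA1 (SD, n = 3). In T98G, GPC1 took 85.0% ± 0.453 with sgDDA1 and 87.6% ± 0.362 with sgCon. In LN229, GPC4 led with 45.2% ± 0.525 with sgDDA1 and 50.5% ± 0.916 with sgCon, and the share of GPC3 was 26.6% ± 1.63 with sgDDA1 and 14.3% ± 1.06 with sgCon. The summed glypican FPKM was 35.4 ± 0.322 in U118-MG sgDDA1, 19.0 ± 0.895 in T98G sgDDA1, 18.1 ± 0.508 in T98G sgCon, 36.0 ± 1.04 in LN229 sgDDA1 and 20.9 ± 0.122 in LN229 sgCon. U118-MG and LN229 with sgDDA1 thus had about the same glypican sum, in different proportions. GPC1, GPC4 and GPC6 contributed in both, and GPC4 took 20.4% ± 1.38 in U118-MG sgDDA1. GPC3 took only 0.172% ± 0.0908 in U118-MG sgDDA1. The sum covers GPC1, GPC3, GPC4 and GPC6 only. The libraries labelled U118-MG sgCon had a sum of 35.2 ± 2.78.

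With sgDDA1, SDC1 and SDC2 were lower in T98G and higher in LN229, SDC4 was lower in T98G with overlapping groups in LN229, and SDC3 was higher in both lines. SDC4 (ENSG00000124145, chromosome 20, 45325288 to 45348424, minus strand), a syndecan of focal adhesions, had 184, 174 and 170 CPM in T98G sgDDA1, against 326, 336 and 313 CPM in T98G sgCon. In LN229 it had 32.2, 36.2 and 33.2 CPM with sgDDA1, against 36.1, 34.3 and 33.5 CPM with sgCon. The groups were far apart in T98G, with a log2 fold change of -0.89 (SE 0.05), and overlapped in LN229, with one of -0.03 (SE 0.05). U118-MG sgDDA1 had 293, 279 and 267 CPM, and the labelled U118-MG sgCon libraries had 61.1, 43.0 and 37.5 CPM.

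SDC1 (ENSG00000115884, chromosome 2, 20200797 to 20225433, minus strand), known from epithelial and plasma cells, had 63.7, 65.9 and 63.6 CPM in T98G sgDDA1, against 95.7, 92.8 and 95.0 CPM in T98G sgCon. In LN229 it had 23.3, 20.4 and 20.2 CPM with sgDDA1, against 8.06, 9.12 and 7.86 CPM with sgCon. The groups were separate in both lines and in opposite directions, with log2 fold changes of -0.55 (SE 0.08) in T98G and 1.36 (SE 0.09) in LN229. SDC2 (ENSG00000169439, chromosome 8, 96493351 to 96611780, plus strand), a syndecan of mesenchymal cells, did the same on a smaller scale. It had 23.6, 21.6 and 21.9 CPM in T98G sgDDA1, against 30.9, 28.4 and 28.9 CPM in T98G sgCon. LN229 had 73.5, 78.3 and 75.0 CPM with sgDDA1, against 70.4, 66.1 and 65.7 CPM with sgCon. The log2 fold changes of SDC2 were -0.40 (SE 0.05) in T98G and 0.16 (SE 0.05) in LN229. U118-MG sgDDA1 was the highest group in SDC2, at 337, 326 and 334 CPM, against 104, 104 and 95.4 CPM in the libraries labelled U118-MG sgCon. SDC1 had 82.4, 112 and 112 CPM in U118-MG sgDDA1, against 55.3, 33.2 and 37.5 CPM in the libraries labelled U118-MG sgCon.

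SDC3 (ENSG00000162512, chromosome 1, 30869467 to 30908761, minus strand), the syndecan known from the nervous system, was the syndecan that was higher with sgDDA1 in both lines. T98G had 164, 164 and 159 CPM with sgDDA1, against 111, 113 and 106 CPM with sgCon. LN229 had 105, 101 and 104 CPM with sgDDA1, against 52.0, 59.1 and 52.6 CPM with sgCon. All sgDDA1 libraries lay above their controls, with log2 fold changes of 0.56 (SE 0.05) in T98G and 0.93 (SE 0.05) in LN229. U118-MG sgDDA1 had 1.70, 1.70 and 1.82 CPM, lower than T98G sgDDA1 by a log2 fold change of -6.52 (SE 0.08) and than LN229 sgDDA1 by -5.91 (SE 0.08). The libraries labelled U118-MG sgCon had 130, 95.1 and 105 CPM.

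Summed over the 4 syndecans, the FPKM was 178 ± 1.74 in U118-MG sgDDA1. It was 106 ± 3.40 in T98G sgDDA1 and 166 ± 4.69 in T98G sgCon, so the sum was lower with sgDDA1 in T98G. In LN229 it was 59.5 ± 0.31 with sgDDA1 and 43.9 ± 0.521 with sgCon (SD, n = 3 each), higher with sgDDA1. SDC4 took 59.2% ± 0.76 of the sum in T98G sgDDA1 and 71.7% ± 0.717 in T98G sgCon. The share of SDC3 in T98G was 20.3% ± 0.322 with sgDDA1 and 8.99% ± 0.0527 with sgCon. In LN229, SDC2 led with 35.6% ± 0.713 with sgDDA1 and 41.5% ± 1.13 with sgCon, and in U118-MG sgDDA1 the leaders were SDC4 with 49.4% ± 2.06 and SDC2 with 37.5% ± 0.763.

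**Figure D3:**
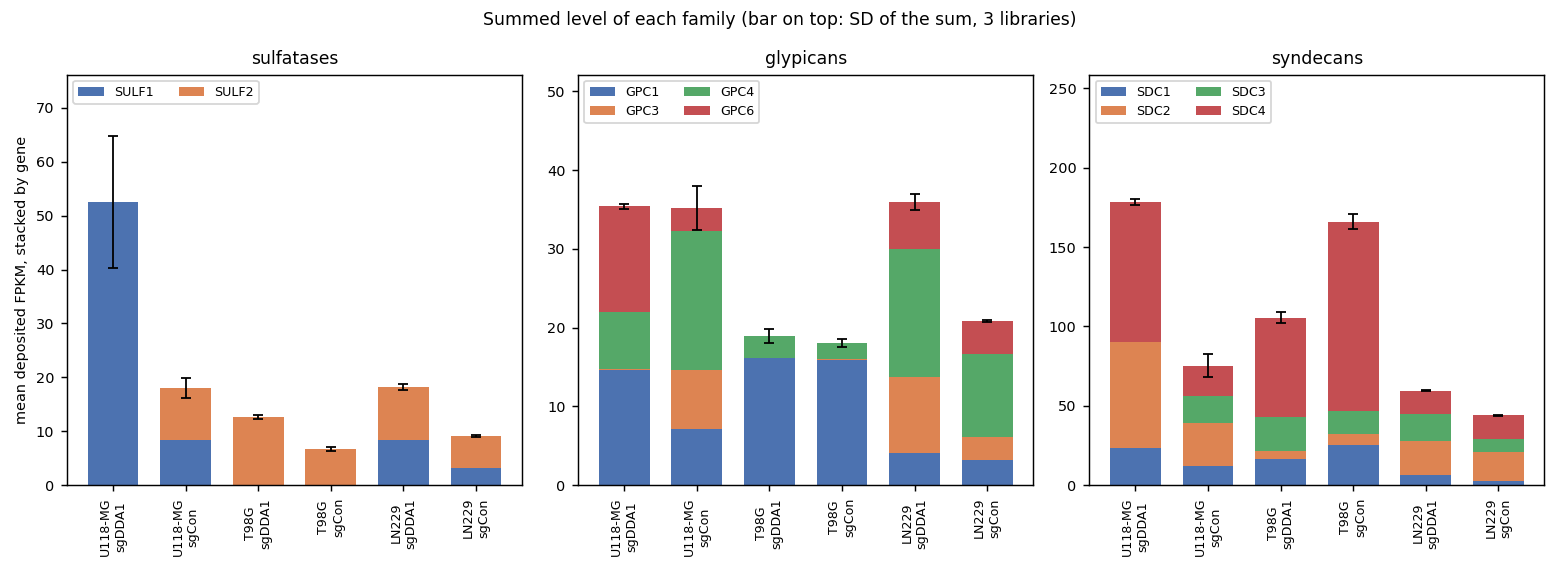
Mean deposited FPKM of the sulfatases, glypicans and syndecans, stacked by gene for each group, from 0, with a bar for the SD of the sum over 3 libraries. The syndecan sum is 106 in T98G sgDDA1 and 166 in T98G sgCon, while the sulfatase sum is higher with sgDDA1 in both T98G and LN229; the group labelled U118-MG sgCon resembles LN229 sgDDA1 in the sulfatases.

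Over the 10 genes, 4 were called higher and 4 lower in T98G sgDDA1 at an edgeR adjusted p under 0.05, where 39% of all genes tested were called (19.4% higher and 19.6% lower). In LN229 sgDDA1, 9 were called higher and 0 lower, where 45.6% of all genes were called (26.2% higher and 19.4% lower). The median log2 fold change of the 10 was -0.16 in T98G, against 0.00 over all genes, and 0.62 in LN229, against 0.06 over all genes. GPC6 was among the 4 lower in T98G, and its call was lost with all 18 libraries and without T98G sgCon 1, T98G sgCon 2, T98G sgDDA1 2 or T98G sgDDA1 3. Without T98G sgCon 3, GPC3 was also called, and the counts became 4 higher and 5 lower. The LN229 calls of GPC1 and SDC2 were lost with all 18 libraries. The choice of genes used these contrasts, so the counts describe the set and nothing is read from them. Between lines, 10 of 10 were called for T98G against LN229 at the control guide (74.8% of all genes), 10 of 10 for U118-MG against LN229 at the DDA1 guide (78% of all genes) and 8 of 10 for U118-MG against T98G at the DDA1 guide (67.2% of all genes). GPC1 and GPC3 were the genes not called in the last of these. Taken as labelled, U118-MG sgDDA1 against U118-MG sgCon called 6 higher and 4 lower (72.2% of all genes, 35.3% higher and 36.9% lower), with log2 fold changes of 3.05 (SE 0.15) for SULF1 and -7.30 (SE 0.13) for SULF2. In that comparison a difference of guide and a difference of line cannot be told apart.

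The difference between the responses of T98G and LN229 is made of both guide responses, and the genes were chosen with earlier results of these data known. Its p-values are therefore not independent of that choice. This difference was tested for the 9 genes other than SULF1. It passed in 8, 1 higher in T98G and 7 lower, where 34.4% of all genes passed (15.8% higher and 18.6% lower). SDC1 differed by -1.91 (SE 0.12, edgeR adjusted p = 1.66e-12), and SDC4 by -0.85 (SE 0.07, adjusted p = 4.65e-10). SDC2 differed by -0.56 (SE 0.07, adjusted p = 3.07e-07). For these 3 syndecans the T98G response was a decrease, and the LN229 response was an increase in SDC1 and SDC2 and near 0 in SDC4. The difference was -2.40 (SE 0.39, adjusted p = 2.17e-05) in GPC3 and -1.33 (SE 0.30, adjusted p = 0.000937) in GPC6, both resting on 7 to 33 counts per T98G library. Among genes that were higher in both lines, SDC3 responded less in T98G, by -0.36 (SE 0.07, adjusted p = 0.000103), and SULF2 responded more, by 0.27 (SE 0.07, adjusted p = 0.00338). GPC1 differed by -0.26 (SE 0.07, adjusted p = 0.00767), and GPC4 by -0.12 (SE 0.08), which did not pass (adjusted p = 0.297). With all 18 libraries in the fit, SDC3 (adjusted p = 0.0685), SULF2 (adjusted p = 0.121) and GPC1 (adjusted p = 0.367) did not pass, and the other 5 did. SULF1 differed by 0.52 (SE 0.44), given as a description.

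**Figure D4:**
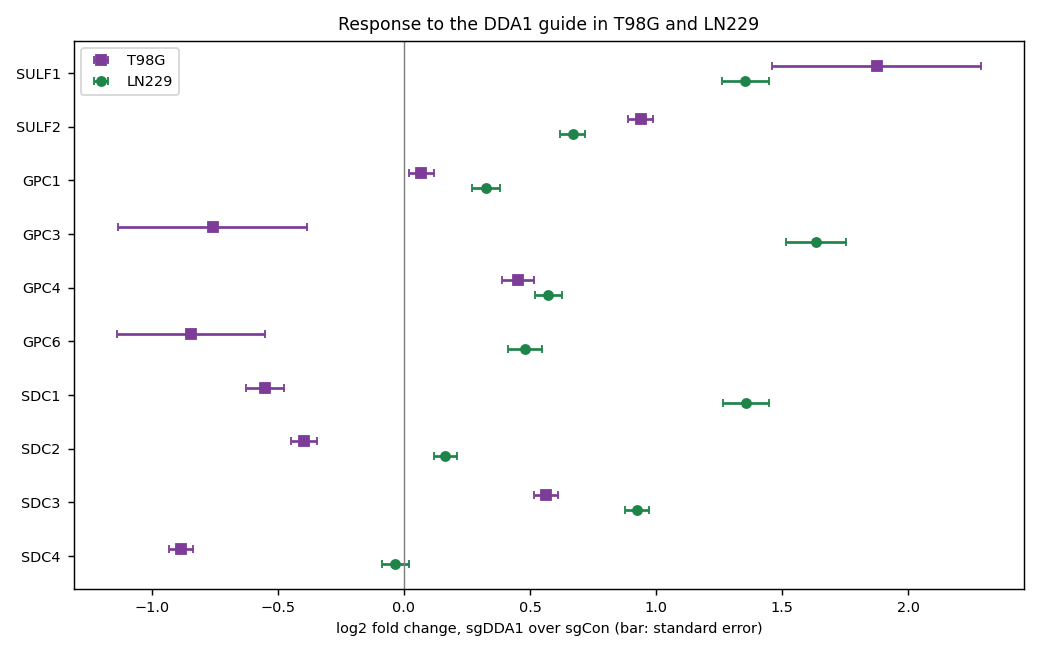
Log2 fold change of sgDDA1 over sgCon for each of the 10 genes, with its standard error, in T98G (squares) and LN229 (circles). SULF1, SULF2, GPC4 and SDC3 lie right of 0 in both lines, while SDC1 is at -0.55 in T98G and 1.36 in LN229.

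Summed markers of several cell types also differed between the groups. The summed CPM of 4 fibroblast and pericyte markers (DCN, LUM, COL1A1 and PDGFRB) was 2718 to 3377 in U118-MG sgDDA1 and 238 to 348 in the labelled U118-MG sgCon libraries. It was 220 to 229 in T98G sgDDA1 and 180 to 184 in T98G sgCon, and 27.3 to 31.5 in LN229 sgDDA1 and 12.6 to 14.4 in LN229 sgCon. All 4 were detected in T98G sgDDA1, T98G sgCon and LN229 sgDDA1 libraries, and LUM was at 0 in LN229 sgCon 3. The 4 markers did not move as a set. PDGFRB was highest in T98G sgDDA1 1, at 213 CPM, where it made up most of the sum. It was a small part of the sum in U118-MG sgDDA1. Over the 18 libraries COL1A1 reached 2136 CPM, LUM 762 CPM and DCN 303 CPM. The sum of 3 neuronal markers (RBFOX3, SNAP25 and SYT1) was 16.9 to 17.5 CPM in T98G sgDDA1 and 12.1 to 14.6 CPM in T98G sgCon. In LN229 it was 25.05 to 27.7 CPM with sgDDA1 and 17.5 to 18.5 CPM with sgCon. U118-MG sgDDA1 had 81.5 to 110 CPM and the labelled U118-MG sgCon libraries 26.2 to 29.03 CPM, where guide and line cannot be told apart. Single markers need not follow this sum, since RBFOX3 ranged over 0.0253 to 22.8 CPM in the 18 libraries. SNAP25 reached 66.2 CPM and SYT1 43.7 CPM, and these markers made up most of the sum in U118-MG sgDDA1. The sum of the 8 glial and glioma markers was 621 to 635 CPM in T98G sgDDA1 and 872 to 915 CPM in T98G sgCon. In LN229 it was 145 to 157 CPM with sgDDA1 and 110 to 119 CPM with sgCon. In U118-MG sgDDA1 it was 2290 to 2554 CPM, against 265 to 379 CPM in the labelled U118-MG sgCon libraries. VIM made up most of this sum in T98G and U118-MG, since NES, the next highest marker, reached only 78.8 CPM. The sum therefore mainly follows VIM there and does not describe the 8 markers as a set. The sum of 3 epithelial markers (EPCAM, KRT5 and CDH1) was 6.23 to 7.19 CPM in LN229 sgDDA1 and 3.34 to 4.93 CPM in LN229 sgCon, and overlapped between the guides in T98G. The sum of 3 endothelial markers (PECAM1, VWF and CDH5) was 8.00 to 12.0 CPM in U118-MG sgDDA1 and at or under 1.29 CPM in every other library. S100B, AQP4, CHI3L1, PTPRC, AIF1, VWF, CDH5, KRT5, SYT1 and LUM were each at 0 in at least 1 library. The part of such expression in the levels of the 10 genes was not tested.

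Other genes of heparan sulfate metabolism were counted in 6 lists with 57 genes, of which 54 passed the filter. With sgDDA1, 17 rose and 12 fell in T98G, and 29 rose and 9 fell in LN229, beside the 39% and 45.6% of all genes called. Of all genes, 19.4% rose and 19.6% fell in T98G, and 26.2% rose and 19.4% fell in LN229. Their median log2 fold change was 0.08 in T98G (0.00 over all genes) and 0.25 in LN229 (0.06 over all genes). Of 11 genes that build the linker and the chain, 3 rose and 3 fell in T98G and 6 rose and 2 fell in LN229. XYLT1, which starts the linker by adding xylose to the core protein, had 23.2, 24.9 and 24.5 CPM in T98G sgDDA1, against 39.2, 38.4 and 39.4 CPM in T98G sgCon. In LN229 XYLT1 had 8.08, 6.42 and 6.68 CPM with sgDDA1, against 3.47, 3.84 and 3.71 CPM with sgCon. It fell by 0.69 (SE 0.06, edgeR adjusted p = 4.82e-10) in T98G and rose by 0.95 (SE 0.08, adjusted p = 5.07e-10) in LN229, and the responses differed (adjusted p = 1.34e-12). EXT1, a subunit of the chain polymerase, rose by 0.34 (SE 0.04) in T98G, and EXTL2, a related transferase, rose by 0.48 (SE 0.06) in LN229. XYLT2 rose in both lines, by 0.31 (SE 0.05) in T98G and 0.39 (SE 0.05) in LN229. EXT2, the partner of EXT1, fell by 0.24 (SE 0.05) in T98G, but not with all 18 libraries (adjusted p = 0.0711). The LN229 call of the linker enzyme B3GALT6 (0.19, SE 0.07, adjusted p = 0.0211) was lost with all 18 libraries (adjusted p = 0.285), with no filter on low counts (adjusted p = 0.078) and without LN229 sgCon 2, LN229 sgCon 3, LN229 sgDDA1 1 or LN229 sgDDA1 3 (adjusted p = 0.0511 to 0.151).

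Among 16 genes of chain modification, 13 passed the filter. In T98G 2 rose and 1 fell, where 19.4% of all genes rose and 19.6% fell. In LN229 4 rose and 2 fell, where 26.2% of all genes rose and 19.4% fell. HS6ST3, which adds the 6-O-sulfate that the SULF enzymes remove, rose to 133, 138 and 133 CPM in T98G sgDDA1, against 99.0, 102 and 103 CPM in T98G sgCon (log2 fold change 0.41, SE 0.05, adjusted p = 8.24e-08). It also rose in LN229, to 12.0, 12.1 and 12.4 CPM with sgDDA1, against 5.71, 6.13 and 6.28 CPM with sgCon (1.02, SE 0.06, adjusted p = 9.74e-13). NDST1, which removes acetyl groups and adds N-sulfate, fell in both lines, by 0.32 (SE 0.04) in T98G and 0.38 (SE 0.04) in LN229. HS6ST1 rose by 0.29 (SE 0.06) in T98G and HS6ST2 fell by 0.37 (SE 0.06) in LN229, and neither passed with all 18 libraries (adjusted p = 0.0939 and 0.0544). The epimerase GLCE rose by 0.27 (SE 0.05) in LN229, likewise lost with all 18 libraries (adjusted p = 0.118).

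Of 5 genes that supply the sulfate donor, 1 rose and 2 fell in T98G, where 19.4% of all genes rose and 19.6% fell. In LN229 2 rose and 2 fell, where 26.2% of all genes rose and 19.4% fell. PAPSS2, a synthase of the donor PAPS, rose by 0.63 (SE 0.05, adjusted p = 2.67e-10) in LN229 with its homolog PAPSS1 (0.51, SE 0.04). SLC35B2, the Golgi carrier of PAPS, fell by 0.63 (SE 0.05, adjusted p = 3.97e-10) in LN229 and rose by 0.32 (SE 0.05, adjusted p = 1.03e-05) in T98G, with a difference between lines of 0.95 (SE 0.07, adjusted p = 1.12e-10). The T98G rise of SLC35B2 was lost with all 18 libraries (adjusted p = 0.0683). PAPSS2 and BPNT2 were called lower in T98G at -0.12 each (SE 0.05 and 0.04), calls lost with all 18 libraries (adjusted p = 0.347 and 0.436). The PAPSS2 call was also lost when any one T98G library was left out (adjusted p = 0.0557 to 0.233), and that of BPNT2 without T98G sgCon 2, T98G sgCon 3 or T98G sgDDA1 2 (adjusted p = 0.0537 to 0.11). BPNT2, which clears a product of sulfation, also fell by 0.25 (SE 0.04) in LN229, lost with all 18 libraries (adjusted p = 0.0656).

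The 10 genes of heparan sulfate breakdown had 4 higher and 3 lower in T98G, where 19.4% of all genes rose and 19.6% fell. They had 8 higher and 1 lower in LN229, where 26.2% of all genes rose and 19.4% fell. HPSE, the heparanase that cuts chains outside the cell, had 10.3, 12.8 and 10.9 CPM in T98G sgDDA1, against 16.5, 17.4 and 18.7 CPM in T98G sgCon. In LN229 HPSE had 11.2, 12.7 and 10.4 CPM with sgDDA1, against 6.48, 6.45 and 6.09 CPM with sgCon. It fell by 0.63 (SE 0.10, adjusted p = 2.08e-05) in T98G and rose by 0.85 (SE 0.11, adjusted p = 2.76e-07) in LN229, and the responses differed by -1.48 (SE 0.15, adjusted p = 1.24e-08). ARSG, a lysosomal sulfatase, had the same pattern, at -0.69 (SE 0.12) in T98G and 0.74 (SE 0.12) in LN229. SGSH, the lysosomal N-sulfatase, rose in T98G to 57.6, 56.3 and 53.9 CPM with sgDDA1, against 31.0, 31.6 and 32.4 CPM with sgCon (0.82, SE 0.05, adjusted p = 3.4e-12). IDUA, the lysosomal iduronidase, rose by 0.53 (SE 0.14) in LN229 and was called at 0.41 (SE 0.14) in T98G, where the call was lost with all 18 libraries (adjusted p = 0.0703) and without T98G sgCon 1, T98G sgCon 2 or T98G sgDDA1 3 (adjusted p = 0.0549 to 0.0776).

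Of 9 other core proteins, 5 rose and 3 fell in T98G, where 19.4% of all genes rose and 19.6% fell. In LN229 6 rose and 1 fell, where 26.2% of all genes rose and 19.4% fell. AGRN, the basement membrane proteoglycan agrin, rose in both lines. It had 291, 285 and 288 CPM in T98G sgDDA1, against 142, 142 and 145 CPM in T98G sgCon (1.01, SE 0.04, adjusted p = 9.8e-16), and rose by 0.61 (SE 0.05, adjusted p = 2.88e-11) in LN229. HSPG2, which encodes perlecan, had 42.1, 38.7 and 41.5 CPM in LN229 sgDDA1, against 13.2, 13.3 and 13.0 CPM in LN229 sgCon (1.63, SE 0.05, adjusted p = 3.72e-18). COL18A1, a collagen that carries heparan sulfate, rose by 0.65 (SE 0.06) in T98G and 0.78 (SE 0.07) in LN229. The glypican GPC2 rose by 0.69 (SE 0.17) in T98G and 1.00 (SE 0.17) in LN229, and the co-receptor TGFBR3 rose by 0.63 (SE 0.07) in T98G. Of 6 genes of release and activation, 2 rose and 0 fell in T98G and 3 rose and 1 fell in LN229, beside the same shares of all genes. SUMF2, a relative of the sulfatase activator, rose by 0.44 (SE 0.04) in LN229, and the activator SUMF1 itself fell by 0.26 (SE 0.07) there, lost with all 18 libraries (adjusted p = 0.102). The T98G call of SUMF2 (0.13, SE 0.05) was lost under RLE scaling (adjusted p = 0.0778), DESeq2 (adjusted p = 0.0598) and all 18 libraries (adjusted p = 0.501), with no filter (adjusted p = 0.157) and without T98G sgCon 1, T98G sgCon 3, T98G sgDDA1 1 or T98G sgDDA1 2 (adjusted p = 0.0783 to 0.105). The protease MMP14, which can shed syndecans, was called at 0.34 (SE 0.05) in T98G and 0.35 (SE 0.09) in LN229, and neither call held with all 18 libraries (adjusted p = 0.0901 and 0.155), nor that in LN229 without LN229 sgCon 1 (adjusted p = 0.0524).

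Of 18 ligands and receptors that bind heparan sulfate, 6 rose and 7 fell in T98G, where 19.4% of all genes rose and 19.6% fell, and 13 rose and 0 fell in LN229, where 26.2% of all genes rose and 19.4% fell. FGF2 had 74.8, 72.4 and 68.8 CPM in T98G sgDDA1, against 168, 173 and 165 CPM in T98G sgCon (-1.23, SE 0.05, adjusted p = 5.31e-16). FGF1 had 2.38, 3.20 and 2.55 CPM in T98G sgDDA1, against 12.0, 11.0 and 11.3 CPM in T98G sgCon (-2.07, SE 0.14, adjusted p = 7.69e-12). Both growth factors fell in T98G well beyond the spread of the libraries, and for FGF2 the responses of the lines differed by -1.68 (SE 0.08, adjusted p = 1.03e-14). PDGFRA, a growth factor receptor, rose in both lines, to 5.65, 4.58 and 5.62 CPM in T98G sgDDA1, against 2.63, 2.32 and 2.01 CPM in T98G sgCon (1.19, SE 0.14, adjusted p = 1.7e-07). In LN229 it had 1.92, 1.61 and 1.54 CPM with sgDDA1, against 0.764, 0.978 and 0.849 CPM with sgCon (1.00, SE 0.20, adjusted p = 0.00015). FGF5 had 6.73, 3.90 and 4.72 CPM in LN229 sgDDA1, against 2.46, 2.09 and 1.86 CPM in LN229 sgCon (1.22, SE 0.15, adjusted p = 2.63e-07). HGF was called higher in both lines, and FGF1 in LN229, at levels near the 3-count floor, so no fold is given. HGF had 0.387, 0.151 and 0.376 CPM in T98G sgDDA1, against 0.0386, 0.0779 and 0.0205 CPM in T98G sgCon. The LN229 call of FGF1 was lost without LN229 sgCon 1 (adjusted p = 0.0527) or without LN229 sgDDA1 1 (adjusted p = 0.075).

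The chondroitin and dermatan sulfate branch, which competes for the same linker, had 6 higher and 6 lower of 16 genes in T98G and 9 higher and 4 lower in LN229, beside the same shares of all genes. CHST11, a chondroitin 4-O-sulfotransferase, had 15.1, 15.1 and 16.3 CPM in T98G sgDDA1, against 32.8, 31.9 and 30.9 CPM in T98G sgCon (-1.04, SE 0.07, adjusted p = 1.87e-12). In LN229 it rose by 0.53 (SE 0.07, adjusted p = 1.69e-07), and the responses differed by -1.57 (SE 0.09, adjusted p = 5.88e-13). CSGALNACT1, which starts chondroitin chains, also moved in opposite directions, at -0.99 (SE 0.11) in T98G and 1.65 (SE 0.18) in LN229. CSGALNACT2 fell by 0.57 (SE 0.05) in T98G, and CHSY3, a chondroitin synthase, rose there by 1.00 (SE 0.23) to 0.752, 0.865 and 1.04 CPM with sgDDA1, against 0.463, 0.37 and 0.493 CPM with sgCon. In LN229 CHST7, a chondroitin 6-O-sulfotransferase, rose by 0.55 (SE 0.09) and the polymerizing factor CHPF2 fell by 0.52 (SE 0.06).

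**Figure D5:**
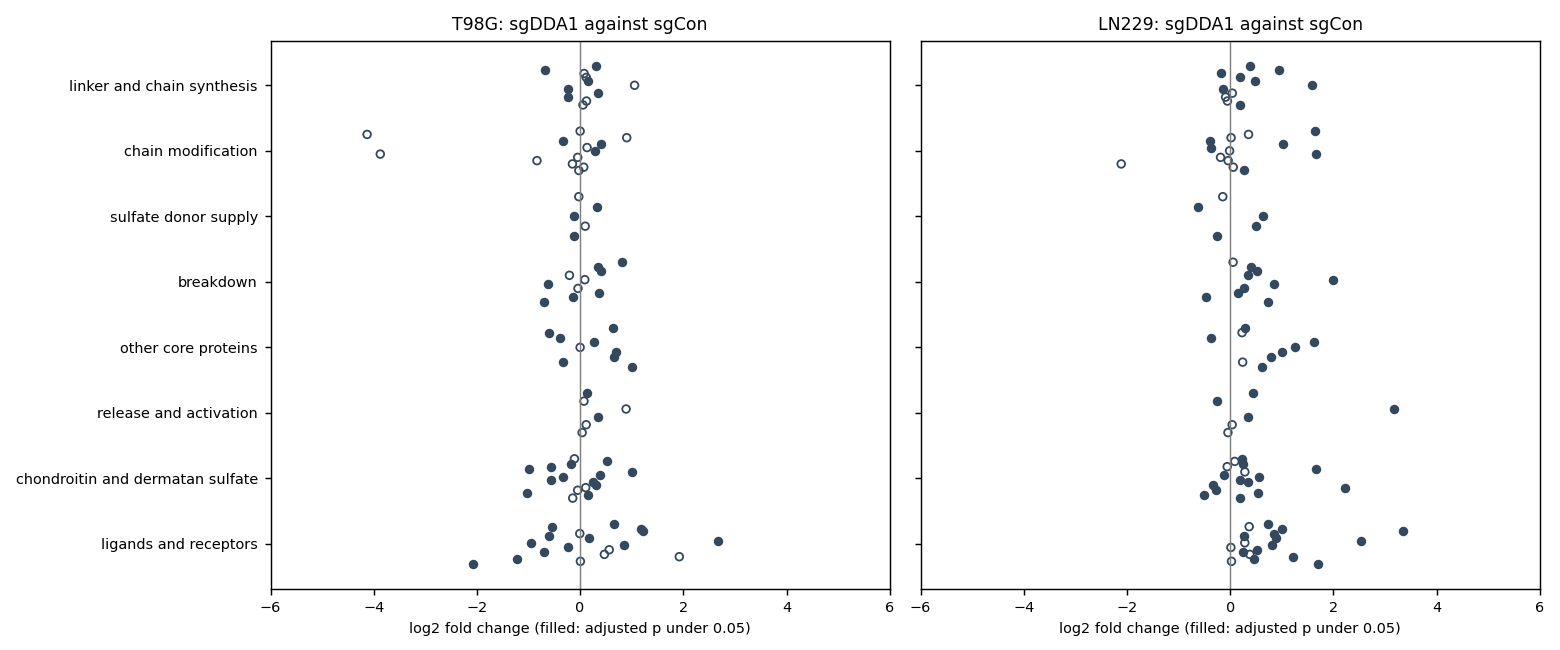
Log2 fold change of sgDDA1 over sgCon for each of the 88 tested genes of 8 lists of glycosaminoglycan metabolism and its ligands, in T98G (left) and LN229 (right), with filled points at an edgeR adjusted p under 0.05. Ligands and receptors lie on both sides of 0 in T98G, where 6 rose and 7 fell, and in LN229 13 rose and 0 fell.

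Genes with a profile most like that of SULF1 or SULF2 were taken by the smallest root mean square difference of centred log2 CPM over the 18 libraries, among 14712 genes whose mean reached 1 CPM. For SULF1 these were VSTM4 (0.56), FGF5 (0.72), PKIA (0.91), EBF2 (0.95) and ACSS3 (0.98), beside a spread of 3.81 for SULF1 itself. VSTM4 averaged 60.2 CPM in U118-MG sgDDA1, 0.0854 CPM in T98G sgDDA1, 0.0274 CPM in T98G sgCon, 7.71 CPM in LN229 sgDDA1 and 4.53 CPM in LN229 sgCon. For SULF2 they were CERS1 (0.27), SEPTIN3 (0.29), SMO (0.33), HOXD8 (0.35) and NXN (0.39), beside a spread of 2.66. All 5 were at or under 0.502 CPM in U118-MG sgDDA1, and SMO, the hedgehog signal transducer, averaged 0.198 CPM there, 49.2 CPM in T98G sgDDA1, 42.3 CPM in T98G sgCon, 35.1 CPM in LN229 sgDDA1 and 33.9 CPM in LN229 sgCon. In the libraries labelled U118-MG sgCon, SMO averaged 45.9 CPM and VSTM4 9.78 CPM. The likenesses to SULF2 thus rest mainly on the low level in U118-MG sgDDA1, and those to SULF1 on differences between several groups. They share their libraries, and no test was made.

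The authors' deposited table of differential genes, whose columns name the LN229 groups only, lists 36 genes as higher and 6 as lower. SULF1 is the only one of the 10 genes in it, with a log2 fold change of 1.29, mean normalized counts of 4141 in sgDDA1 and 1692 in sgCon and an adjusted p of 8.61e-123 in the authors' deposited table.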

How the data were processed

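RNA sequencing counts of 18 libraries were analysed. Per the submitters' processing notes, fastp 0.19.6, STAR 2.4.0, HTSeq 0.12.4 and DESeq2 (no version or role) were used with GRCh38. The deposited table gives raw counts and FPKM per gene, made by the authors, and no source used here gives the strandedness. The authors' deposited table of LN229 differential genes holds mean normalized counts as its signal, a log2 fold change, and p-values. Even values made up 57.4% to 63.7% of counts from 1 to 19, and the sources used here give no reason.

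TMM scaling and edgeR 4.0.16 (quasi-likelihood test) in R 4.3.3 were applied to the counts of 15 libraries in 5 groups after filterByExpr, with Benjamini-Hochberg adjustment over 24020 genes and a threshold of 0.05. The comparison labelled U118-MG used all 18 libraries and 24418 genes. Printed levels are TMM-scaled CPM from the 18-library scaling, or deposited FPKM, with a prior count of 2 in log2 CPM, and SD is over 3 libraries. Floors cover counting error only. SE of a log2 fold change is its absolute value divided by the square root of the quasi-likelihood F statistic. Alternatives were all 18 libraries, the 12 of T98G and LN229, RLE scaling, DESeq2 1.42.0, no filter, a replicate block and leaving out each library. The procedure was tested on simulated data.

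The 10 genes and the gene lists were chosen with earlier results of these data known. Named list genes are up to 4 per list and guide comparison with the largest changes among those called with a mean of at least 1 CPM. One gene that this rule would name is not reported here. Coordinates are from GENCODE 29 on GRCh38, and upstream sequences from RefSeq on GRCh38.p14.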

Additional observations from a re-analysis of the deposited data

Results flagged for a closer look

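In 8 of the 9 genes tested, the response to the DDA1 guide differed between T98G and LN229 by the test of that difference (T98G response minus LN229 response, log2). Of all genes tested, 34.4% passed the same test. The genes were chosen with earlier results of these data known, so this test is not independent of the choice. The differences were 0.27 in SULF2, -0.26 in GPC1, -2.40 in GPC3, -1.33 in GPC6, -1.91 in SDC1, -0.56 in SDC2, -0.36 in SDC3 and -0.85 in SDC4. With all 18 libraries in the fit, SULF2, GPC1 and SDC3 did not pass (edgeR adjusted p = 0.121, 0.367 and 0.0685 in that order). GPC3 and GPC6 rested on 7 to 33 counts per T98G library. Groups of 3 libraries were too small to be tested for single outlying libraries.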

How the results depend on the processing

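With all 18 libraries in the fit, the number of genes called became 5402 (9363 with 15 libraries) in T98G, 7185 (10949) in LN229 and 4227 (8257) for the difference between their responses. Of the 10 genes, the calls then became 4 higher and 3 lower in T98G (4 and 4 with 15 libraries), 7 higher and 0 lower in LN229 (9 and 0), and 0 higher and 5 lower for the difference (1 and 7). Under the 12 libraries of T98G and LN229, RLE scaling, DESeq2, no filter on low counts and the replicate block, these calls of the 10 genes had the same numbers as with 15 libraries. RLE scaling moved the median of all genes by at most 0.03 in size on the log2 scale. No called result reversed under these alternatives.

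Same-numbered replicates showed little shared deviation (correlations of -0.0189 to 0.0285). Deviations within groups of 3 libraries cannot exclude that the numbers pair the samples. In LN229 every sgDDA1 library correlated best with the control of its own number, as a hint from the data. In T98G only replicate 3 did so, and in the libraries labelled U118-MG none did. With the replicate block 9186 genes were called in T98G, 10693 in LN229 and 8048 for the difference. Leaving out single libraries called 8308 to 8390 genes in T98G and moved the T98G log2 fold change of SULF1 between 1.75 and 1.96. Depth limits SULF1, GPC3 and GPC6 in T98G and SULF2 and GPC3 in U118-MG sgDDA1, where counts were 4 to 50 per library.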
